A study of Mus musculus with 24 samples.

Results

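The genes described here serve the presentation of peptides on MHC class II molecules. They are H2-Aa, H2-Ab1, H2-Eb1, H2-DMa, H2-DMb1, H2-Oa, Cd74, Ciita and Ifi30, chosen by name as the rows of both count tables that carry these symbols. All 9 were found in each table, among 54658 gene symbols. RNA-seq was performed on 24 libraries from C57BL/6 male mice aged 7 to 12 weeks. For 12 libraries, peritonitis was induced with 1 mL of 4% thioglycollate medium (TGC), peritoneal lavage cells were plated, and these were stimulated for 6 h with E. coli. The other 12 libraries are the hearts and lungs of 6 mice after cecal ligation and puncture (CLP), a surgical model of polymicrobial sepsis. In each model, mice received β-NMN, a precursor of NAD+, at 185 mg/kg/day or saline (vehicle), with the last dose 24 h before sacrifice. Dosing began right after surgery in the CLP model, whereas in the TGC model the labels place the first dose right after induction and the methods place it together with TGC. There were 6 vehicle and 6 β-NMN libraries of peritoneal cells, and 3 vehicle and 3 β-NMN mice in the CLP experiment. Thus all peritoneal groups shared TGC and E. coli, all organ groups shared CLP, and no uninfected, unstimulated or sham-operated library was analysed here. The peritoneal samples were mixed lavage cells with no sort, and the organs were whole-tissue pieces of 10 mg.

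MHC class II molecules are heterodimers of an α and a β chain that display peptides from endocytosed proteins to CD4+ T cells, and in mice they are carried mainly by dendritic cells, B cells and macrophages. In the endoplasmic reticulum the chains assemble with the invariant chain CD74, which blocks the groove until endosomal proteases degrade it. The H2-DM dimer then exchanges the remaining fragment for antigenic peptide, the H2-O dimer restrains H2-DM, and IFI30 (GILT) reduces disulfide bonds of antigens in the endosome. Transcription of these chain and chaperone genes depends on the coactivator CIITA, which does not itself bind DNA and acts through factors bound to the X and Y boxes of class II promoters.

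The promoter letters of 5 members are shown because they contrast genes that fell, did not pass the test or rose in peritoneal cells. RefSeq promoter windows on GRCm38.p6 were found for 6 of the 9 members, namely H2-Aa, H2-Eb1, H2-DMa, H2-DMb1, H2-Oa and Ifi30. The 250 bases before each start were searched on both strands for ATTGG (the CCAAT box read on the other strand), for the longer CTGATTGG of the class II Y box, which contains ATTGG, and for the X box core GCAACNG. The 140 bases just before the start are printed 5′ to 3′ on the strand of the gene, with motif matches in capitals.
H2-Aa, chr17:34287824-34287963, minus strand: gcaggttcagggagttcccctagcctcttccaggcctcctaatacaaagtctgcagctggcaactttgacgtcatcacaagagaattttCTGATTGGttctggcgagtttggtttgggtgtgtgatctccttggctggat
H2-Eb1, chr17:34305727-34305866, plus strand: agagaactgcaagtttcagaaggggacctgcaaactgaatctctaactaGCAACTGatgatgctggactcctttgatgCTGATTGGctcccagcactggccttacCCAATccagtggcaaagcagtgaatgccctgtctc
H2-DMb1, chr17:34153051-34153190, plus strand: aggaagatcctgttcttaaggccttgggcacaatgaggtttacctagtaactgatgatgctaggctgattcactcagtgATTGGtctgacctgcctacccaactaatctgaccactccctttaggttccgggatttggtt
H2-Oa, chr17:34092239-34092378, plus strand: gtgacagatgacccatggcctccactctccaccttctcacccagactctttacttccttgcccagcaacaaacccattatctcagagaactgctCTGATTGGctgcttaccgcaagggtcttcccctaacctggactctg
Ifi30, chr8:70766664-70766803, minus strand: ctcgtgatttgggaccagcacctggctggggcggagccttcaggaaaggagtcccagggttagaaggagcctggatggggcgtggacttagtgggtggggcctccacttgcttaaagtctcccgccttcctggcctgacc
CTGATTGG was found in the windows of H2-Aa, H2-Eb1 and H2-Oa, and in 3.83% of all 32851 promoter windows of the same length. Counted from the start, its first base lay at -51 in H2-Aa, at -62 in H2-Eb1 and at -46 in H2-Oa. By exact match, H2-DMb1 held only the shorter ATTGG, at -61, a motif present in 33.8% of all windows. Only exact matches were counted, so a box that differs in a letter was missed. The printed letters of H2-DMb1 hold such near matches to both the X and the Y box. H2-Eb1 also held GCAACNG at -91, found in 10.2% of all windows, and ATTGG on the opposite strand at -35. None of the 3 motifs was found in the Ifi30 window. H2-DMa, whose letters are not printed, had windows at different starts. The upstream window also held none of the motifs, and the other held only ATTGG, at -198. The windows of H2-Aa and H2-Eb1, whose transcripts fell in peritoneal cells, and of H2-Oa, which did not pass the test there, thus shared the same 8 letters.

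The members' genes lay mostly together in the class II region. On GRCm38 (GENCODE M21), H2-Ab1 spanned chr17:34257689-34269419, H2-Aa chr17:34282744-34287823 and H2-Eb1 chr17:34305867-34316674. The peptide-editing genes H2-Oa (chr17:34092340-34095234), H2-DMa (chr17:34119541-34139101) and H2-DMb1 (chr17:34153072-34160230) preceded them on the same chromosome. Transcripts of H2-Aa, H2-Ab1, H2-Eb1, Cd74 and Ifi30 shared no stretch of 100 bases with another gene. H2-DMb1 shared 11.3% of its 100-base words with H2-DMb2, a near copy, so its counts are less certain. H2-DMa shared 6.58% with Brd2 and H2-Oa 8.98% with BC051537, both of which overlap them on the opposite strand, and without strand such reads cannot be told apart. Whether the counting used strand is stated neither in the labels nor in the methods.

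Total counts ranged from 31126823 to 112456050 in peritoneal libraries. The 5 deeper ones, vehicle replicates 4 to 6 and β-NMN replicates 1 and 2, held at least 90571560 counts, and the other 7 at most 53319385. Totals ranged from 27319513 to 68523239 in hearts and from 8915366 to 28356786 in lungs. Mouse vehicle replicate 2 stood apart in both organs. The SD of its log2 values around the mean of the other libraries was 0.99 in heart and 1.57 in lung, against at most 0.58 and 0.60 for any other library, and its lung had the fewest counts. All values of this mouse are therefore named below. Tissue markers fitted the labels. Macrophage Adgre1 averaged 563 CPM (counts scaled to a common library size after TMM normalisation) in vehicle peritoneal cells. Cardiac Myh6 was at least 17952 CPM in every heart and alveolar Sftpc at least 14019 CPM in every lung. The source label of the organ samples names thioglycollate peritonitis whereas their titles and tissue labels name CLP, which was followed here. One β-NMN heart is numbered 3 in its title but carries the mouse code of lung replicate 2, and it was taken as replicate 2 by that code. In the peritoneal experiment the 12 libraries carry different sample codes, and the methods assigned 6 mice to each treatment. No source used here states outright that each library is 1 mouse.

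Levels of different genes were compared only as CPM per kb of exon. In vehicle peritoneal cells Cd74 was the most abundant member, with a median of 327 CPM per kb and a range of 238 to 422 over 6 libraries. H2-Eb1 (median 126), Ifi30 (111) and H2-Ab1 (108) followed in CPM per kb, and their ranges overlapped each other. H2-Aa had a median of 53.9 CPM per kb, and its vehicle range lay below those of these 3 genes. The peptide editors were lower, at medians of 10.1 CPM per kb for H2-DMb1 and 5.08 for H2-DMa, whose ranges did not overlap. Ciita (1.202 CPM per kb) and H2-Oa (1.10) were the lowest and overlapped. With β-NMN, Ifi30 came directly after Cd74, at medians of 154 and 193 CPM per kb, and their ranges overlapped.

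The first comparison asked which class II genes differed between E. coli-stimulated peritoneal cells of β-NMN- and vehicle-treated mice. Of the 9 members, 4 fell, namely both chains of I-A (H2-Aa and H2-Ab1), the β chain of I-E (H2-Eb1) and the invariant chain (Cd74). Ifi30 rose, and H2-DMa, H2-DMb1, H2-Oa and Ciita did not pass the test (edgeR's quasi-likelihood test, Benjamini-Hochberg adjusted p below 0.05 over 14985 genes). In this comparison 27.9% of all genes tested were called lower and 23.7% higher, so calls were frequent in general. The median log2 fold change over the 9 members was -0.30, against -0.02 over all genes tested. This median is the value of H2-Oa, the member with the fewest counts, and it was -0.11 without vehicle replicate 6, -0.17 without β-NMN replicate 6 and -0.48 without β-NMN replicate 2. The decrease of the 3 chains and Cd74 was between 1.602- and 1.918-fold. In bulk samples, fewer cells of a type and less RNA per cell cannot be told apart.

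H2-Ab1, the β chain of I-A, showed the largest difference among the members. Its values were 246, 278 and 347 CPM (lowest, median and highest of 6) in vehicle cells and 99.4, 147 and 201 CPM in β-NMN cells. The groups did not overlap. The mean was 1.92-fold lower with β-NMN (log2 fold change -0.94 ± 0.14 SE, adjusted p = 7.43e-05 with edgeR's quasi-likelihood test). The exact two-sided permutation test over the 12 libraries gave p = 0.00216, the smallest value that 6 against 6 allows.

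H2-Eb1, the β chain of I-E, ranged from 217 over a median of 244 to 314 CPM in vehicle cells and from 85.6 over 147 to 203 CPM in β-NMN cells. These groups did not overlap either, and the log2 fold change was -0.79 ± 0.17 SE (edgeR adjusted p = 0.00111, exact permutation p = 0.00216). Non-overlapping groups with lower β-NMN values were thus seen in 2 members, and in 14.0% of all genes tested. H2-Aa, the α chain of I-A, ranged from 177 to 269 CPM (median 205) with vehicle and from 80.6 to 181 CPM (median 138) with β-NMN. Only the highest β-NMN library reached the vehicle range. The log2 fold change of H2-Aa was -0.68 ± 0.16 SE (edgeR adjusted p = 0.00291, exact permutation p = 0.00433).

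Cd74, on GRCm38 chr18:60803848-60812652, encodes the invariant chain that guides the chains to endosomes and blocks their groove. It ranged from 400 to 709 CPM (median 550) in vehicle cells and from 200.02 to 461 CPM (median 324) in β-NMN cells, so that the groups overlapped at 400 to 461 CPM. The log2 fold change was -0.74 ± 0.18 SE (edgeR adjusted p = 0.00331, exact permutation p = 0.00649). In all 4 genes the lowest library was β-NMN replicate 6, and the highest β-NMN library was replicate 2. Without β-NMN replicate 6 the log2 fold changes ranged from -0.81 for H2-Ab1 to -0.54 for H2-Aa, and all 4 remained called.

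The genes of peptide editing gave no call. H2-DMa, the α chain of H2-DM, ranged from 12.2 to 23.4 CPM with vehicle and from 8.63 to 22.9 CPM with β-NMN. Its log2 fold change was -0.19, with a 95% interval from -0.63 to 0.25 (adjusted p = 0.471). H2-DMb1, its β chain partner, ranged from 13.8 to 21.5 CPM and from 11.1 to 21.3 CPM in the same order, with a log2 fold change of -0.0052 and an interval from -0.34 to 0.33. H2-Oa, the α chain of the H2-DM inhibitor H2-O, ranged from 0.769 to 3.84 CPM with vehicle and from 0.907 to 2.28 CPM with β-NMN, with an interval from -1.01 to 0.40. For each of these genes the groups overlapped. Only the interval of H2-Oa, the gene with the fewest counts, was wide enough to hold the log2 fold changes estimated for the chains. Those estimates carry their own error, and differences between genes were not tested.

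Ciita, the coactivator of class II transcription on chr16:10480059-10528418, did not pass the test. It ranged from 5.93 over a median of 11.5 to 15.7 CPM in vehicle cells and from 5.38 over 11.2 to 12.995 CPM in β-NMN cells. The log2 fold change was -0.12, with an interval from -0.60 to 0.36 (adjusted p = 0.687). Each group had 1 library well below the others, vehicle replicate 3 and β-NMN replicate 5.

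Ifi30, the thiol reductase of the endosome, was the 1 member that rose. Located at chr8:70762774-70766663, it ranged from 89.3 over a median of 109 to 157 CPM in vehicle cells and from 122 over 151 to 196 CPM in β-NMN cells. Vehicle replicate 3, the highest vehicle library, exceeded 3 of the 6 β-NMN libraries, so the groups overlapped. The log2 fold change was 0.48 ± 0.15 SE (edgeR adjusted p = 0.0126, exact permutation p = 0.0173).

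**Figure D1:**
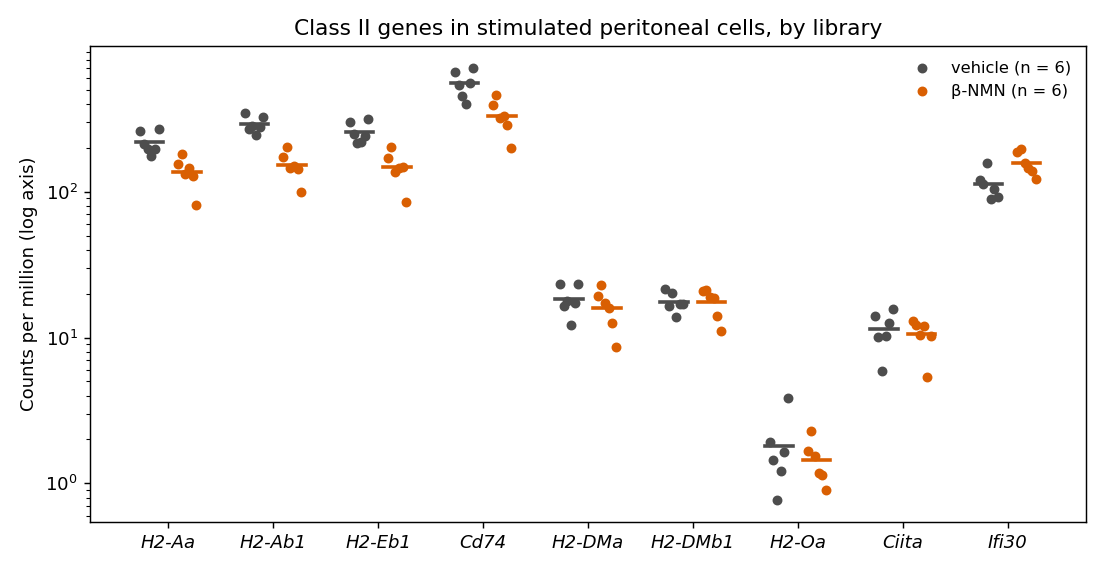
CPM (log axis) of the 9 genes in the 12 peritoneal libraries; each point is a library, replicates run from left to right within a group, and bars are group means (6 vehicle, 6 β-NMN). H2-Ab1 and H2-Eb1 do not overlap between groups. H2-DMb1 lies at 13.8 to 21.5 with vehicle and at 11.1 to 21.3 with β-NMN, and Ifi30 is higher with β-NMN.

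Ratios of raw counts within a library need no scaling between libraries, and 7 of them were set after the values had been seen, so they are given as a description with no test. H2-Ab1 had 14.0 to 19.2 counts per count of H2-DMb1 in vehicle libraries and 7.59 to 10.3 in β-NMN libraries. Per count of H2-DMa these values were 14.1 to 20.2 and 8.46 to 11.5, and per count of Ifi30 they were 1.79 to 3.56 and 0.817 to 1.05. None of these 3 ratios overlapped between groups. Per count of Ciita, H2-Ab1 ranged from 20.8 to 47.2 with vehicle and from 9.75 to 26.8 with β-NMN, where 1 β-NMN library, replicate 5, the one with the low Ciita value, reached into the vehicle range. Relative to Cd74 the difference was small, with 0.462 to 0.616 and 0.437 to 0.501 counts of H2-Ab1 per count. Counts of H2-Aa per count of H2-Ab1 were 0.696 to 0.822 with vehicle and 0.811 to 0.965 with β-NMN, and those of H2-Eb1 were 0.775 to 0.959 and 0.861 to 1.03. Hence the classical chains and Cd74 were lower together, whereas the ratio of H2-Ab1 to the genes that edit or prepare peptides was lower with β-NMN.

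**Figure D2:**
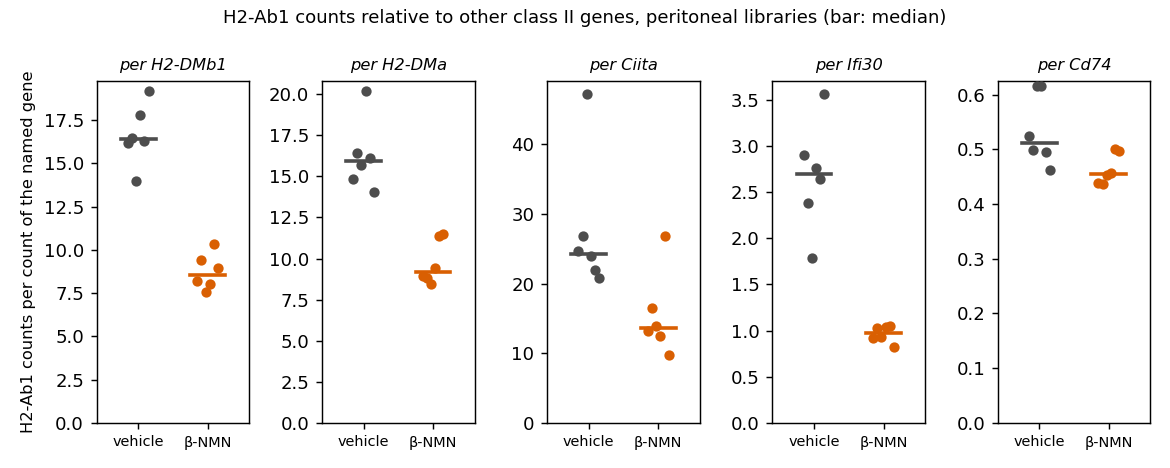
Counts of H2-Ab1 per count of H2-DMb1, H2-DMa, Ciita, Ifi30 and Cd74 in each peritoneal library (linear axes from 0, bars are medians, 6 libraries per group). The β-NMN points lie below all vehicle points for H2-DMb1, H2-DMa and Ifi30 and overlap them for Ciita and Cd74.

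Sequencing depth split both groups, and within-depth values were computed after the depths had been seen. Among the 5 deeper libraries, 3 vehicle and 2 β-NMN, the log2 fold change was -0.54 for H2-Ab1, -0.40 for H2-Eb1, -0.29 for H2-Aa and -0.32 for Cd74, and of these only H2-Ab1 was called (adjusted p = 0.0485). Among the other 7 libraries, all 4 were called, with log2 fold changes of -1.12, -0.95, -0.85 and -0.93 in the same order. Ifi30 was 1.07 among the deeper libraries (adjusted p = 0.00182) and 0.14 among the others (adjusted p = 0.521), where it was not called. H2-DMb1 was 0.47 among the deeper libraries, called at adjusted p = 0.0485, and -0.27 among the others. Whether the effects differed between the depth classes was not tested. With depth class as a term in the fit across all 12 libraries, the same 5 members were called, at log2 fold changes from -0.93 for H2-Ab1 to 0.48 for Ifi30.

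Other genes of the pathway were taken from lists of known function and are given by their counts, to be read against the 27.9% of all genes called lower and 23.7% called higher. Of the other class II chains, 3 passed the low-count filter and 2 fell, H2-Eb2 (log2 fold change -1.41, adjusted p = 0.00142) and H2-DMb2 (-0.80, adjusted p = 0.0369), whereas H2-Ob, the partner of H2-Oa, gave 0.08. These are low-level genes, at 0.233 to 2.29 CPM for H2-Eb2. Of 7 factors that bind class II promoters, 3 fell and none rose, a count near the background. They were Creb1 (-0.55), which binds the X2 box, and the NF-Y subunits Nfyc (-0.36) and Nfyb (-0.45). Of 13 genes that induce or restrain Ciita, 7 fell and 2 rose. The 3 with the smallest p all fell, namely Ifngr1, the ligand-binding chain of the interferon-γ receptor (-1.42), Zbtb46, a factor of classical dendritic cells (-1.83) that is also the first marker of the dendritic cell list below, and Irf4 (-1.58). Over 21 alternative fits, 1 to 3 promoter factors and 4 to 8 genes around Ciita fell, and 0 to 2 of the other chains.

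The endosomal proteases and their inhibitors moved the other way from the chains. Of 10 genes, 8 rose and none fell, with a median log2 fold change of 0.50. The proteases Ctsb (1.17) and Ctsd (1.08) and the invariant-chain protease Ctss (0.76) had the smallest p. Ctsb ranged from 6073 to 8201 CPM in vehicle and from 14740 to 17693 CPM in β-NMN libraries, and Ctss from 2486 to 4027 and from 5190 to 5695 CPM. Neither gene overlapped between groups. Ifi30 was therefore not the only endosomal gene to rise, and the 23.7% of all genes that were called higher is the background of this count. The number of called proteases varied between 5 and 9 of 10 over the 21 alternative fits.

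Against the same background of 27.9% lower and 23.7% higher, 1 of 3 genes of class II ubiquitination and turnover fell, March1 (-1.27), the ligase that removes class II and CD86 from the surface of antigen-presenting cells. Of 6 costimulatory or T cell-facing genes, 3 fell and none rose, namely Cd80 (-1.72), Icosl (-1.40) and Pdcd1lg2 (-1.19). Of 3 partners of CD74 as a surface receptor, Cd44 rose (0.27) and the cytokine genes Mif and Ddt did not pass the test. Over the 21 alternative fits 0 or 1 of these partners rose and 0 or 1 fell, so the single call is near the background and depends on the fit.

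**Figure D3:**
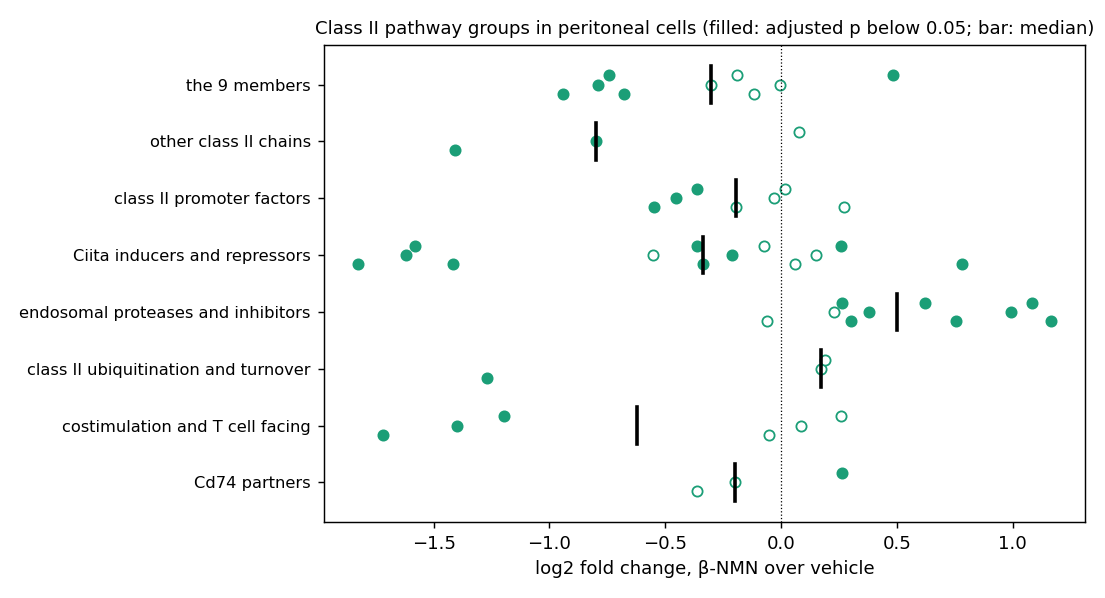
Log2 fold change of β-NMN over vehicle in peritoneal cells for the 9 members and for 7 groups of pathway genes; each point is a gene that passed the low-count filter, filled points have an adjusted p below 0.05, and bars are medians. The members' median lies at -0.30 and that of the endosomal proteases and inhibitors at 0.50.

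Marker genes of cells that carry class II were counted against the same 27.9% of all genes called lower and 23.7% called higher. The summed level of 9 dendritic cell markers ranged from 181 to 222 CPM in vehicle and from 50.8 to 68.3 CPM in β-NMN libraries, with no overlap. Of these, 4 fell and 2 rose, with a median log2 fold change of -0.53 over the 9, and the sum gives most weight to the abundant ones. The defining marker Zbtb46 was 27.8 ± 7.3 CPM with vehicle and 7.85 ± 0.54 CPM with β-NMN (SD, n = 6). The summed level of 8 B cell markers ranged from 109 to 458 CPM and from 88.4 to 278 CPM, with 4 called lower and 1 higher. Over the 21 alternative fits 2 to 5 B cell markers and 3 or 4 dendritic cell markers fell, with the lowest B cell count within the 5 deeper libraries. Of 8 macrophage markers 3 rose and 1 fell, with Adgre1 at 0.20 (adjusted p = 0.0550), and over those fits 3 to 5 rose. The part of these cells in the class II result was not tested.

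The variation among replicates was described from the deviations of each library from its own group mean. The mean deviation of H2-Aa, H2-Ab1, H2-Eb1 and Cd74 ran from -0.29 to 0.30 log2 in vehicle libraries and from -0.68 in β-NMN replicate 6 to 0.48 in β-NMN replicate 2. Over the 12 libraries, H2-DMa followed this deviation at Pearson r = 0.95 and H2-DMb1 at 0.81, so that both tracked the chains among replicates although neither passed the test between treatments. Ciita gave 0.44 and Ifi30 0.47. Without the 2 libraries farthest from the median deviation, r was 0.90 for H2-DMa, 0.56 for H2-DMb1, 0.65 for Ciita and 0.06 for Ifi30. Outside the members and among 9638 expressed genes, the 8 most alike were Retnlg, Rasgrp2, Mfng, Pygl, Pglyrp1, Arhgap15, Ly6d and Cd2, with r from 0.97 to 0.93. Among first markers of the cell lists, endothelial Pecam1 gave r = 0.71, mast cell Cpa3 0.63, macrophage Adgre1 0.53 and alveolar macrophage Marco 0.32. The neutrophil gene S100a8 gave 0.00037, the dendritic cell gene Zbtb46 -0.00072 and the fibroblast gene Col1a1 -0.69. These libraries share their scaling and depth, the correlations are a description, and they carry no p.

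The second comparison addressed the hearts of CLP mice. None of the 8 members tested was called, as none of the 16245 genes was (0% called). No member reached an unadjusted p below 0.05, against 11.3% of all genes, whereas DESeq2, the fit with no low-count filter and the replicate block each gave an unadjusted p below 0.05 for 4 members, and no adjusted call. The median log2 fold change of the members was -0.61, against -0.0058 over all genes, and -0.23 without vehicle replicate 2. H2-Aa was 5.99, 16.3 and 3.93 CPM in vehicle replicates 1, 2 and 3 and 3.98, 4.86 and 3.38 CPM in β-NMN hearts. H2-Ab1 was 8.34, 22.4 and 6.49 CPM and 5.18, 7.74 and 5.81 CPM in the same order. Vehicle replicate 2 was the highest heart for both, and the other 5 hearts overlapped.

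H2-Eb1 and Cd74 were also highest in vehicle replicate 2. H2-Eb1 was 9.93, 21.9 and 6.52 CPM with vehicle and 5.40, 8.26 and 5.64 CPM with β-NMN. Cd74 was 32.5, 67.1 and 25.3 CPM with vehicle and 18.1, 30.5 and 20.05 CPM with β-NMN. The log2 fold changes were -1.11 ± 0.51 for H2-Aa, -0.99 ± 0.47 for H2-Ab1, -0.99 ± 0.44 for H2-Eb1 and -0.86 ± 0.39 for Cd74 (SE), with adjusted p between 0.436 and 0.445 by edgeR's quasi-likelihood test. Without vehicle replicate 2 they were -0.30, -0.25, -0.36 and -0.34. An exact permutation test of 3 against 3 cannot go below 0.1 and gave 0.3 for H2-Aa and 0.2 for the other 3 genes. In vehicle replicate 2 the summed level of B cell markers was 81.0 CPM, against 22.4 to 32.5 CPM in the other 5 hearts, and that of cardiomyocyte markers 30621 CPM, against 49988 to 57732 CPM. Of the other class II-bearing cell types, macrophage markers were lowest in this heart (238 CPM, against 265 to 474) and dendritic cell markers lay within the range of the others (26.5 CPM, against 24.9 to 31.2). Fibroblast markers (1865 CPM, against 769.9 to 1119) were highest in it. So was the sum of genes listed as markers of large resident peritoneal macrophages (1076 CPM, against 231 to 640.3). That sum exceeded the general macrophage sum of the same heart and is not read as macrophages here. The part of any cell type in the high class II values of this heart was not tested.

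The remaining members differed little in hearts. Ifi30 was 8.91, 7.62 and 8.73 CPM with vehicle and 9.20, 7.43 and 6.50 CPM with β-NMN, and unlike the chains it was not raised in vehicle replicate 2. Its log2 fold change was -0.13 (interval -0.55 to 0.29). H2-DMa (-0.0072), H2-DMb1 (-0.36) and Ciita (0.08) lay between 0.527 and 1.94 CPM in all hearts, and H2-DMa was 0.44 without vehicle replicate 2. H2-Oa did not pass the low-count filter, with 1, 2 and 0 counts in vehicle hearts and 0 in each β-NMN heart. Of the 7 count ratios described for peritoneal cells, 6 overlapped between heart groups, among them H2-Ab1 per count of H2-DMb1 (6.37 to 15.1 with vehicle and 4.79 to 9.87 with β-NMN). Only H2-Ab1 per count of H2-DMa did not, at 7.69 to 11.6 in vehicle and 4.34 to 6.07 in β-NMN hearts, with 29 to 103 counts of H2-DMa per library. In lungs all 7 overlapped.

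The third comparison addressed the lungs of the same mice. None of the 9 members was called (0% of 17008 genes), none had an unadjusted p below 0.05, against 1.77% of all genes, and DESeq2 likewise called none and gave none an unadjusted p below 0.05. The median log2 fold change of the members was 0.11, against 0.00057 over all genes, and -0.07 without vehicle replicate 2. H2-Ab1 was 288, 191 and 227 CPM in vehicle lungs 1 to 3 and 249, 236 and 247 CPM in β-NMN lungs, with a log2 fold change of 0.05 (95% interval -0.53 to 0.64). H2-Aa (-0.03, interval -0.59 to 0.54), H2-Eb1 (0.03, interval -0.68 to 0.73) and Cd74 (0.06, interval -0.61 to 0.72) were likewise close to 0. For all 4 genes the lung groups overlapped. The lower ends of the 4 intervals lay above the peritoneal log2 fold changes of the same genes (-0.94, -0.68, -0.79 and -0.74). Those peritoneal estimates carry their own error, which this leaves out. The experiments were separate and not fitted together, so the difference was not tested.

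H2-DMa was the 1 member whose lung groups did not overlap, with 24.9, 7.22 and 25.1 CPM in vehicle and 29.8, 26.6 and 25.7 CPM in β-NMN lungs. In 4.47% of all genes the β-NMN lungs lay above all vehicle lungs. Its log2 fold change was 0.51 (interval -0.55 to 1.57) and 0.13 without vehicle replicate 2, the lung with 50 counts of the gene. The summed level of 8 macrophage markers was 1289 CPM in that lung, against 4029 to 5480 CPM in the other 5, and endothelial markers were also lowest (762 CPM, against 1467 to 2270). B cell markers (91.9 CPM, against 36.6 to 83.2) and T cell markers (43.8 CPM, against 17.1 to 28.6) were highest in the same lung, and the part of these cells was not tested. H2-DMb1, by contrast, was 23.7, 30.0 and 24.0 CPM with vehicle, highest in the same lung, and 30.5, 25.8 and 27.4 CPM with β-NMN. The 2 chains of the H2-DM dimer thus stood in opposite places in vehicle replicate 2. Ciita (0.16), Ifi30 (0.14) and H2-Oa (0.15, at 1 count in vehicle replicate 2) gave overlapping groups.

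**Figure D4:**
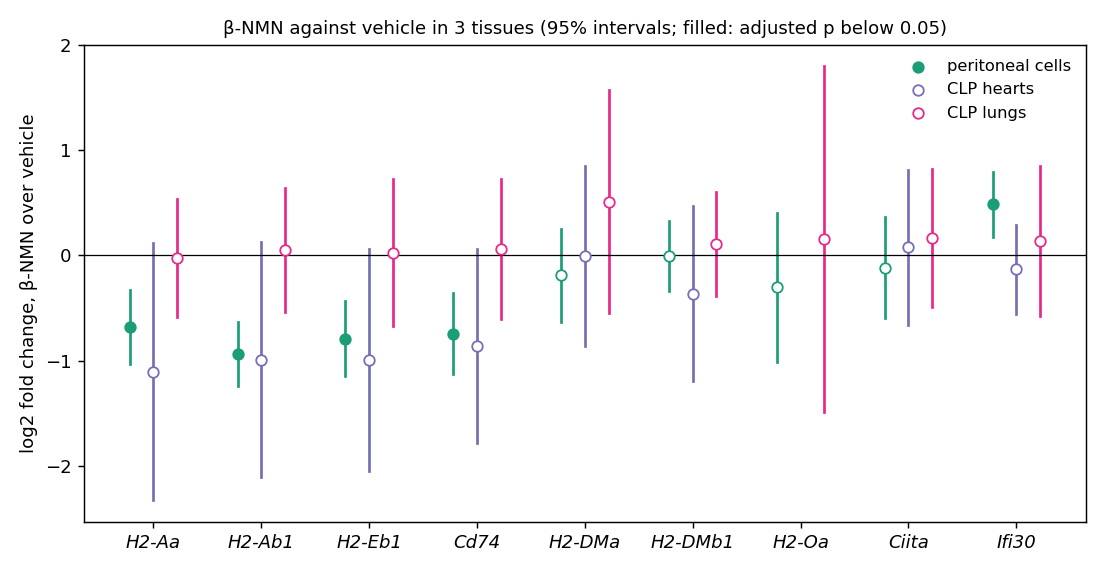
Log2 fold change of β-NMN over vehicle for each gene in peritoneal cells, CLP hearts and CLP lungs, with 95% intervals; filled points have an adjusted p below 0.05, and H2-Oa has no value in hearts. The 5 filled points are all peritoneal, and the heart intervals of H2-Aa, H2-Ab1, H2-Eb1 and Cd74 reach 0.06 to 0.12.

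Hearts and lungs of the same 6 mice were then compared, with mouse as a block and CPM scaled over the 12 CLP libraries together. All 9 members were called higher in lung, as were 34.6% of all 18318 genes. H2-Aa had a median of 5.63 CPM in hearts (range 4.26 to 20.3) and 119 CPM in lungs (range 109 to 157), and the organs did not overlap. The lung level was 18.3-fold higher for H2-Aa, 18.7-fold for H2-Ab1 and 17.5-fold for H2-Eb1, and 11.7-fold for Cd74. The peptide editors gave 16.6-fold for H2-DMb1 and 11.3-fold for H2-DMa, whereas Ciita (8.28-fold) and Ifi30 (6.82-fold) had the smallest ratios. Adjusted p-values of these 8 genes lay between 1.12e-06 and 0.000132 (edgeR's quasi-likelihood test). H2-Oa had 3 counts in the 6 hearts together and 158 in the 6 lungs. Its log2 difference in the same fit was 5.65 ± 0.85 SE (edgeR adjusted p = 0.000504). The ratio of its pooled rates was 120, with an exact 95% counting interval from 40.5 to 590. This ratio used library sizes scaled within each organ, so it is not on the scale of the folds above.

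The lung value exceeded the heart value in 6 of 6 mice for every member. H2-Oa had 0 counts in 4 of the hearts and so no ratio there. For the other 8 members the within-mouse ratio was the smallest in mouse vehicle replicate 2, with 5.01-fold for H2-Ab1 there and up to 29.7-fold in another mouse. For Ifi30 the 6 mice lay closer together, between 5.04- and 8.47-fold. Without vehicle replicate 2 the log2 difference of H2-Ab1 was 4.45 in place of 4.23, and all 9 members remained called. The order of levels per kb also differed between organs. In vehicle hearts Ifi30 (median 8.90 CPM per kb) came directly after Cd74 (19.3), above H2-Eb1 (5.11), H2-Ab1 (3.25) and H2-Aa (1.58), although vehicle replicate 2 carried H2-Eb1 to 11.3, past the Ifi30 range. In vehicle lungs Cd74 (355) was followed by H2-Eb1 (113), Ifi30 (91.7) and H2-Ab1 (88.5 CPM per kb), whose ranges overlapped.

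**Figure D5:**
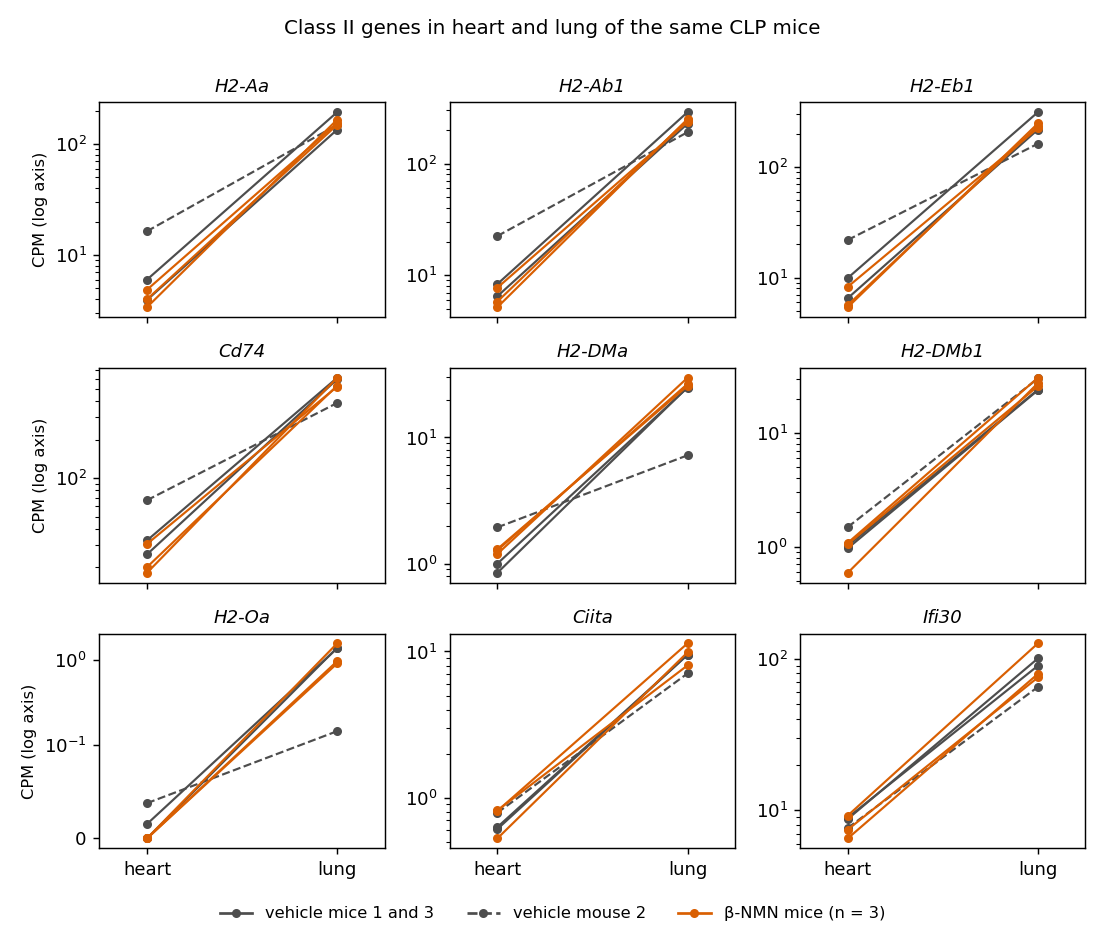
CPM (log axes, with a linear part below 0.1 for H2-Oa) of each gene in heart and lung, each scaled within its organ; a line joins both organs of a mouse. Lung lies above heart in all 6 mice for every gene, and vehicle mouse 2, drawn dashed, has the highest heart value of H2-Aa, H2-Ab1, H2-Eb1 and Cd74.

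The last comparison tested whether the β-NMN effect itself differed between lung and heart, by the interaction term over the 12 CLP libraries. No member was called (0% of all genes), with no unadjusted p below 0.05, against 4.35% of all genes, and DESeq2 gave none at an unadjusted p below 0.05 either, whereas the fit with no low-count filter gave 2 and no adjusted call. The difference in log2 fold change, lung minus heart, was 1.08 ± 0.58 for H2-Aa, 1.04 ± 0.55 for H2-Ab1, 1.01 ± 0.56 for H2-Eb1 and 0.91 ± 0.51 for Cd74 (SE, adjusted p = 0.960 for each). Without mouse vehicle replicate 2 these differences were 0.21, 0.14, 0.16 and 0.19. For Ciita and Ifi30 they were 0.09 ± 0.43 and 0.26 ± 0.36. The peritoneal experiment was not fitted together with the organs, so differences between the peritoneal and the organ effects were not tested.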

How the data were processed

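Poly(A) RNA libraries were sequenced by the authors and aligned to mm10 with STAR (2.7.3a in the submitters' processing notes), and the deposited values are raw counts per gene symbol from featureCounts 2.0.0. Strand setting and annotation are not given in the sources used here. The 9 members and all gene lists were chosen with earlier results of these data known. Within each tissue, genes were filtered with filterByExpr, scaled by TMM and tested with edgeR 4.0.16 (estimateDisp, quasi-likelihood F-test), with Benjamini-Hochberg adjustment over all genes at 0.05. CPM used TMM library sizes and log2 CPM a prior count of 2. All members were named. Of each pathway group, up to 3 genes with the smallest p in peritoneal cells were named, and of marker lists the counts, the summed CPM and the first marker, except that the first B cell marker is not reported here. Fits were tested on simulated data. Replicate numbers did not pair vehicle with β-NMN samples, whereas mouse codes paired heart with lung. Alternatives used DESeq2 1.42.0 and limma 3.58.1. Totals of 8915366 to 112456050 counts set the precision, and counting intervals cover counting error only.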

Additional observations from a re-analysis of the deposited data

Results flagged for a closer look

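The Ciita value of 5.38 CPM in β-NMN replicate 5 of the peritoneal cells stood far from the other 5 libraries of its group, which ran from 10.2 to 12.995 CPM. The 9 genes were examined in this way in both peritoneal groups of 6 libraries, 18 sets of values that share the same libraries, and chance marks about 1 in 20. Without this library the log2 fold change of Ciita was 0.04 in place of -0.12, and it was not called in either case.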

How the results depend on the processing

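In peritoneal cells the same number of members, 5, was called under each of 6 other settings (DESeq2 size factors, no low-count filter, the DESeq2 test, the newer quasi-likelihood fit, limma-voom with quality weights and the replicate block) and under each of the 12 fits that left out 1 library. Within the 5 deeper libraries 3 were called and within the other 7 libraries 4, with fewer samples in both, a split chosen after seeing the data. Directions changed only for members that were not called in the reported fits. Given as log2 fold changes of β-NMN over vehicle, H2-DMb1 in peritoneal cells was 0.023 with DESeq2 size factors, 0.024 with no low-count filter, 0.023 with the DESeq2 test, 0.0077 with the newer quasi-likelihood fit, 0.11 with limma-voom and 0.47 in the deeper libraries, where H2-DMa was 0.32 and Ciita 0.030. Leaving out 1 library gave -0.070 to 0.13 for H2-DMb1, -0.48 to 0.078 for H2-Oa and -0.21 to 0.043 for Ciita. In hearts H2-DMa was 0.00014 with DESeq2 size factors, 0.011 with no filter, 0.36 with limma-voom and 0.075 with the replicate block, and leaving out 1 heart gave -0.21 to 0.44 for H2-DMa and -0.030 to 0.27 for Ciita. In lungs limma-voom gave -0.11 for H2-Ab1, -0.23 for H2-Eb1, -0.40 for H2-Oa, -0.15 for Cd74 and -0.14 for Ifi30. Leaving out 1 lung gave -0.11 to 0.16 for H2-Aa, -0.079 to 0.24 for H2-Ab1, -0.17 to 0.32 for H2-Eb1, -0.26 to 0.47 for H2-Oa, -0.12 to 0.18 for Cd74 and -0.14 to 0.29 for Ifi30. For the difference of the β-NMN effect between organs it gave -0.33 to 0.96 for H2-DMa and -0.17 to 0.32 for Ciita. The median over the members with limma-voom was -0.12 in peritoneal cells, -0.28 in hearts and -0.11 in lungs, and leaving out 1 library gave -0.48 to -0.11, -0.81 to -0.23 and -0.072 to 0.24. The cause was not tested. With the replicate block the members called were 5 in peritoneal cells and 0 in hearts and lungs. Correlations of same-numbered samples ran from -0.17 to 0.13 in peritoneal cells, 0.07 to 0.24 in hearts and -0.52 to 0.30 in lungs. Without mouse as a block, all 9 members were still higher in lung. The low counts of H2-Oa and, in hearts, of H2-DMa, H2-DMb1 and Ciita limit what could be detected.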

Other observations

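Markers of other cell types also differed in peritoneal cells, where 27.9% of all genes tested fell and 23.7% rose (edgeR's quasi-likelihood test). Of 7 neutrophil markers 5 fell and 1, Retnlg, rose, and their summed level was 491 to 998 CPM with vehicle and 334 to 467 CPM with β-NMN, with no overlap. The calprotectin subunit gene S100a8 averaged 87.4 ± 35.4 CPM with vehicle and 2.78 ± 1.46 CPM with β-NMN (SD, n = 6 each). All 4 fibroblast markers tested fell, from a summed 74.1 to 812 CPM to 17.1 to 64.6 CPM. Of 7 T cell markers 5 fell, among them Cd3e, Cd3d and Cd3g of the T cell receptor complex, whereas the kinase gene Lck rose and made up most of the sum. The median log2 fold change of the 7 was -1.26, yet their summed level had medians of 40.7 CPM with vehicle and 53.4 CPM with β-NMN. Of 6 markers of large resident peritoneal macrophages, Prg4, Timd4 and Selp rose while Gata6 and Icam2 fell, and the summed medians were 44.0 and 88.8 CPM. Over 21 alternative fits, 4 or 5 neutrophil markers and all 4 fibroblast markers fell. The count of T cell markers that fell was 0 in the less deeply sequenced libraries taken alone, a subset chosen after seeing the data, and 4 or 5 in the other fits. Of the resident macrophage markers 2 or 3 rose, and 2 fell except within the deeper libraries, where 1 did, and within the less deeply sequenced ones, where none did.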
